A study of Mus musculus with 33 samples.

Results

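Amyloid precursor processing genes, the mouse genes for the precursor protein, its close relative, the enzymes that cut them and their sorting receptor, were followed in sorted microglia. The 9 genes App, Aplp2, Psen2, Bace1, Adam10, Ncstn, Aph1a, Psenen and Sorl1 were chosen by name and function, with earlier results of these data known. All 9 were among the 54146 genes counted in each of 33 libraries. Microglia, the resident macrophages of the brain, were isolated without enzymes from C57BL/6 mice and sorted. Wild-type (WT) mice and mice with a germline deletion of Irf8 (IRF8KO) gave 4 libraries per genotype at an age of 3 months and 3 per genotype at 9 months. The older set also held 5xFAD mice with intact Irf8 and 5xFAD mice without it (5xFAD/IRF8KO), with 3 libraries per genotype. The 5xFAD line carries transgenes with familial Alzheimer's disease mutations, human APP among them, under the neuronal Thy1 promoter, and the 9 genes studied here are the mouse genes. Mice without Batf3 (Batf3-/-, here Batf3KO) and a WT group of their own were profiled at 3 months (3 each). A conditional line carried a floxed Irf8 allele alone (flox, 3 libraries) or together with the tamoxifen-inducible Cre recombinase Cx3cr1CreERT2 (Cre, 4 libraries). Both received tamoxifen on 5 days from postnatal day 12, and per the series' description cells that express a yellow fluorescent reporter were sorted from this line at 3 months. Cx3cr1 is expressed in microglia and also in other macrophages and monocytes, so the Cre is not limited to microglia. The labels do not say that the libraries of a group came from separate mice, so p-values measure the spread between these libraries only.

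The amyloid precursor is a membrane protein that is cut in competing ways. An alpha-secretase can cut inside the amyloid-beta stretch and release a soluble fragment, or a beta-secretase can cut in front of it, after which gamma-secretase cuts within the membrane and frees amyloid-beta. Sorting decides which enzyme the precursor meets, because the beta and gamma cuts take place mainly in endosomes. In the brain neurons make most of the precursor, and microglia are better known for taking up and degrading amyloid-beta than for making it.

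Positions are those of GENCODE M21 on GRCm38, the mouse build also called mm10. App (ENSMUSG00000022892.11, chr16:84949685-85173766, minus strand) encodes the precursor. Aplp2 (ENSMUSG00000031996.17, chr9:31149557-31211815, minus strand) encodes a relative that the same enzymes cut and that lacks the amyloid-beta stretch. Adam10 (ENSMUSG00000054693.14, chr9:70678997-70780229, plus strand) encodes the main alpha-secretase, and Bace1 (ENSMUSG00000032086.12, chr9:45838580-45864399, plus strand) encodes the beta-secretase. The gamma-secretase members were Psen2 (ENSMUSG00000010609.15, chr1:180227004-180263438, minus strand), a presenilin that holds the catalytic site, Ncstn (ENSMUSG00000003458.12, chr1:172066013-172082795, minus strand), the nicastrin subunit that receives substrates, Aph1a (ENSMUSG00000015750.15, chr3:95893969-95898288, plus strand), a scaffold subunit, and Psenen (ENSMUSG00000036835.7, chr7:30561863-30563627, minus strand), which encodes PEN-2, the subunit that activates presenilin. Sorl1 (ENSMUSG00000049313.8, chr9:41964720-42124297, minus strand) encodes SORLA, a receptor that carries the precursor away from late endosomes and is a risk gene for Alzheimer's disease. Each is a protein-coding gene, and the counts are over all of its exons.

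Promoters were examined because Irf8 and Batf3, the genes deleted here, encode transcription factors. RefSeq start sites on GRCm38.p6 gave 11 windows of 250 bases upstream for 8 of the 9 genes. The composite site of PU.1 with an interferon regulatory factor (GGAA and GAAA with 2 bases of any kind between, on either strand) was in none of the 11 windows and in 2.3% of 32851 mouse promoters. The interferon-stimulated response element (GAAA repeated after 2 bases of any kind, on either strand) was in none of the 11 and in 2.98% of all, and these patterns can overlap each other. The AP-1 letters TGANTCA, the kind of site that BATF factors bind with JUN partners, were in none of the 11 and in 6.75% of all. The GC box (GGGCGG on either strand), a site of SP1-type factors, was in 6 of the 11 and in 32.7% of all. Absence of these letters from a window of this size says nothing of binding elsewhere at a gene. The stretches in front of the 4 genes called higher in 5xFAD/IRF8KO against 5xFAD are given 5′ to 3′ on the strand of the gene, with the GC box letters in capitals (the longer run in Adam10 holds 2 overlapping boxes). For App the 59 bases nearest to the start site are left out because annotated transcripts cover them, and its 1 GC box lies within those bases.
App, chr16:85173767-85173957, minus strand: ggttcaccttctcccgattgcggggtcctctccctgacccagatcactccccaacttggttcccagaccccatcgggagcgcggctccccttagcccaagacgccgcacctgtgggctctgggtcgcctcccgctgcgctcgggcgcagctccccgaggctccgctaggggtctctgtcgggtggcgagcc
Aplp2, chr9:31211849-31212098, minus strand: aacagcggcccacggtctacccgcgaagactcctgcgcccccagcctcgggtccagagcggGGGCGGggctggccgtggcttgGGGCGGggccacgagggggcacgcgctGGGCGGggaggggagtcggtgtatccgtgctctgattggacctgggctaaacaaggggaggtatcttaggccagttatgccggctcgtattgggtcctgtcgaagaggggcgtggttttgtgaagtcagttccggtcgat
Adam10, chr9:70678732-70678981, plus strand: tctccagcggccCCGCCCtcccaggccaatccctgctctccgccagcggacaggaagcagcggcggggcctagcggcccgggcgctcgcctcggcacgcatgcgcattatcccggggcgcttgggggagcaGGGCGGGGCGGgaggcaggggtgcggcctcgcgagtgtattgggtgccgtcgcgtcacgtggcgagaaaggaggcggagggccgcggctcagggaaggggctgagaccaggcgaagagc
Sorl1, chr9:42124298-42124547, minus strand: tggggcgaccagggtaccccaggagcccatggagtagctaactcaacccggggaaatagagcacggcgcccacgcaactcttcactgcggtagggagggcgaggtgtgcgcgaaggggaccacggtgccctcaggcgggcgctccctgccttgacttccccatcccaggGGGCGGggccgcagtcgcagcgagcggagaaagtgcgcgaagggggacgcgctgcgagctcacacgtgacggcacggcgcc
The windows were rich in G and C, with 70.8% in the whole App window, 66.4% for Aplp2, 74.0% for Adam10 and 69.6% for Sorl1, against a median of 52.4% over all promoters.

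Libraries held between 605376 and 18357762 counts in genes, the lowest being WT replicate 3 at 9 months. Irf8 counts fell with the label in both germline knockout comparisons, with reads remaining in the deleted gene. At 9 months they were at 585 to 679 CPM (counts scaled to the library total and the scaling factor of the test) in WT against 16.6 to 140 in IRF8KO. At 3 months they were at 211 to 303 against 89.9 to 152 CPM. Values of cell markers and sex-linked transcripts are CPM scaled to the library total alone. In the conditional line the library labelled Cre replicate 1 had 1130 CPM of Irf8, within the flox range of 968 to 1240, while the other Cre libraries had 365 to 520. Every label gives the sex as female, yet transcripts of 4 Y-linked genes were at 275 to 307 CPM in WT at 9 months and at 0 in 2 of the 3 5xFAD libraries, so sex is not balanced over the groups at 9 months. They were at 4.63, 149 and 40.8 CPM in IRF8KO and at 230 to 269 in 5xFAD/IRF8KO. Xist, the X-linked transcript set against them in the sex score below, was at 48.6, 5.26 and 184 CPM and at 8.67 to 39.5. At 3 months the Y-linked sum was 7.81 to 107 CPM in WT and 118 to 161 in IRF8KO, and 0 in both groups of the Batf3KO experiment. Markers of other cells also moved with the germline Irf8 knockout. The summed level of 8 microglial markers was 58400 to 60300 CPM in WT and 47000 to 53300 in 5xFAD at 9 months, against 2610 to 7220 in IRF8KO and 5680 to 6800 in 5xFAD/IRF8KO, where Sall1 was at 0. Neutrophil markers (11 genes) summed to 3.3 CPM or less in WT and 2.07 or less in 5xFAD, where 8 and 4 of them were at 0, but to 64400 to 90300 in IRF8KO and 81600 to 145000 in 5xFAD/IRF8KO with none at 0. Neuronal markers (10 genes, most abundant Snap25) summed to 6.95 to 8.96 CPM in WT with Tubb3 and Stmn2 at 0, to 4.59 to 5.28 in 5xFAD, to 708 to 3420 in IRF8KO and to 493 to 1730 in 5xFAD/IRF8KO. Summed markers of oligodendrocytes, astrocytes, monocytes, border macrophages, red blood cells and lymphocytes were higher in the same 6 libraries as well. The oligodendrocyte sum was 7300 to 11200 CPM in IRF8KO and 4850 to 6100 in 5xFAD/IRF8KO, against 237 to 273 in WT and 204 to 252 in 5xFAD. The monocyte sum was mostly Chil3, with means of 9550 CPM in IRF8KO and 12100 in 5xFAD/IRF8KO. Of the border macrophage markers, Cbr2 and Folr2 were at 0 in IRF8KO and Folr2 in 5xFAD/IRF8KO, and Pf4 was the most abundant. The endothelial sum was lower in these libraries, at 20.9 to 86.4 CPM against 110 to 253 in WT and 5xFAD, but the list did not move as a whole. In WT and 5xFAD the sum was mostly Pecam1, with means of 176 and 120 CPM, and Cldn5, Slco1a4, Ly6c1 and Tek were at 0. No endothelial marker was at 0 in IRF8KO or in 5xFAD/IRF8KO. In the 3-month IRF8KO experiment the WT libraries carried markers of other cells too, with 8570 to 53900 CPM of neutrophil and 425 to 865 of neuronal markers. Oligodendrocyte markers were at 5510 to 63200 CPM in these WT libraries and 3220 to 37000 in IRF8KO. Red blood cell markers were at 30500 to 103000 and 9020 to 90300 CPM. In the Batf3KO experiment both groups had at most 5.16 CPM of neutrophil and 20.2 of neuronal markers. Where these lists move with a result below, their part in it was not tested, and in such bulk samples fewer cells of a type and less RNA per cell cannot be told apart.

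**Figure D1:**
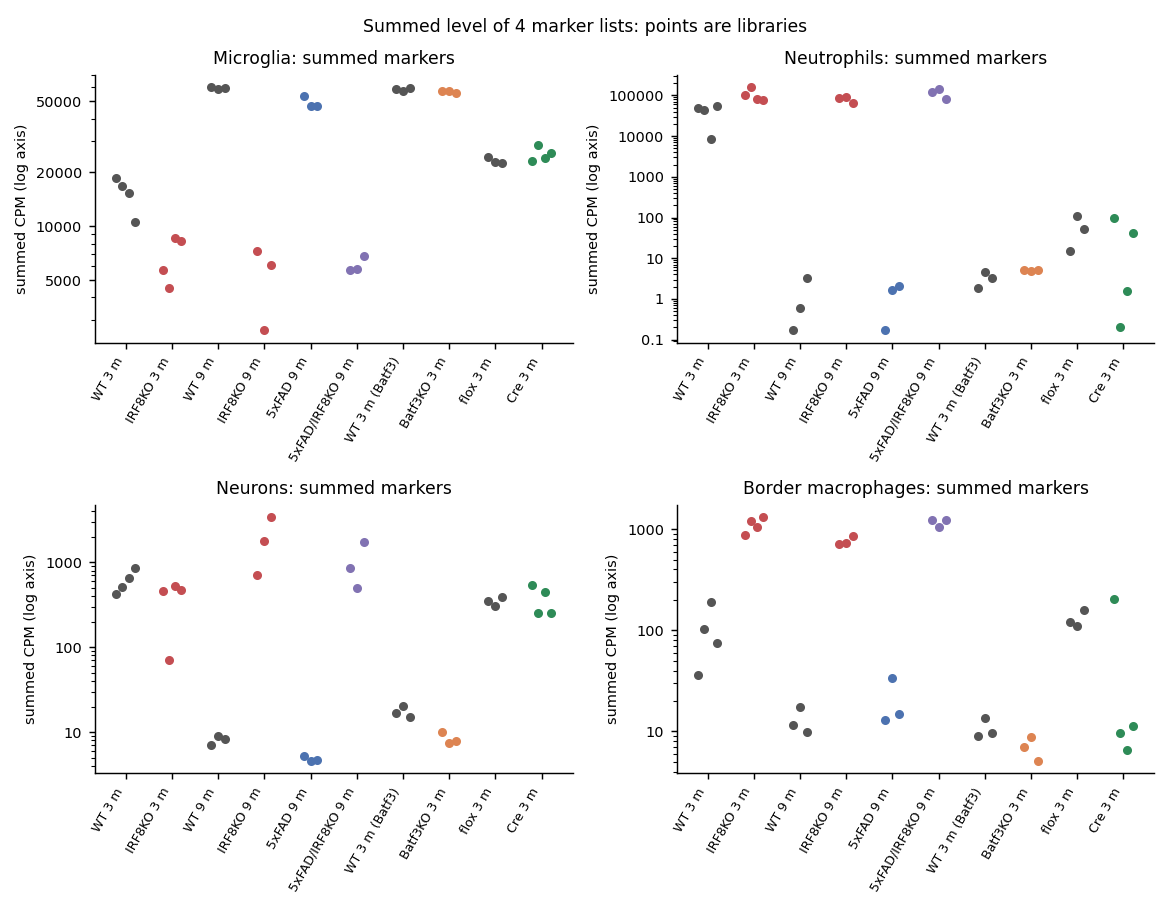
Summed CPM of 4 marker lists (vertical, log axis) in each of the 33 libraries (points) by group (horizontal). The microglial sum is lowest, and the neutrophil and border macrophage sums highest, in the IRF8KO and 5xFAD/IRF8KO groups, and WT libraries of the 3-month IRF8KO experiment also hold 8570 CPM or more of neutrophil markers.

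At 9 months, loss of Irf8 went with higher App and Sorl1 in both genetic backgrounds, and with an Adam10 level that was lower in mice without the transgenes. Genes were called changed at an adjusted p under 0.05 in edgeR's quasi-likelihood test with Benjamini-Hochberg adjustment over all genes tested, and adjusted p-values below come from this test unless another is named. In IRF8KO against WT, 3 of the 9 genes were called, 2 higher and 1 lower, against 28.3% of 14604 genes tested (19.6% higher and 8.68% lower), and the libraries of the groups did not overlap for 5 of the 9, against 49.3% of all. In 5xFAD/IRF8KO against 5xFAD, 5 of the 9 were called, 4 higher and 1 lower, against 27.8% of all (18.0% higher and 9.72% lower), and 6 did not overlap, against 48.7% of all. Nothing particular to the 9 genes is read from these counts. The median log2 fold change of the 9 was 0.80 and 0.82 in these comparisons, against 0.25 and 0.24 over all genes tested.

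App was measured at 124, 100 and 108 CPM in the 3 WT libraries and at 169, 274 and 267 CPM in IRF8KO. In 5xFAD it was at 79.4, 53.8 and 53.7 CPM, and in 5xFAD/IRF8KO at 238, 293 and 296. Every library without Irf8 was above every library with it, and the 5xFAD libraries were the lowest of the 12. The log2 fold change was 1.10 (SE 0.265, adjusted p = 0.00907) without the transgenes and 2.14 (SE 0.272, adjusted p = 0.000134) with them. The first was no longer called without WT replicate 2 (adjusted p = 0.0554) or WT replicate 3 (0.0537), with library sizes as the only scaling (log2 fold change 0.71, 0.0615, where the median of all genes moved from 0.25 to -0.13) or with a score of sex-linked transcripts in the model (0.0576). The adjusted p of the second was 0.00414 or less under all 9 alternative settings and 0.00219 or less whichever library was left out. Whether the effect of Irf8 loss differed with the transgenes was tested as an interaction, which was 1.04 (SE 0.371, adjusted p = 0.211) on the log2 scale.

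Aplp2, the relative without the amyloid-beta stretch, lay above its controls in every library without Irf8. It was at 180, 169 and 138 CPM in the WT libraries and at 240, 313 and 291 in those of IRF8KO. Its 5xFAD values were 161, 67.5 and 141 CPM, and the double mutant gave 368, 223 and 253. The log2 fold change of 0.80 in IRF8KO against WT did not pass the test (SE 0.321, adjusted p = 0.0836). In 5xFAD/IRF8KO against 5xFAD it was 1.20 (SE 0.323, adjusted p = 0.0162), and this call was lost when 5xFAD replicate 2, 5xFAD replicate 3 or 5xFAD/IRF8KO replicate 1 was left out (largest adjusted p = 0.0746), with the sex score in the model (0.121) and with only these groups fitted (0.0518).

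Sorl1 showed the widest range of the 9 genes. Its levels were 22.1, 16.0 and 30.3 CPM in WT and 104, 59.4 and 305 in IRF8KO. They were 9.45, 8.28 and 14.5 CPM in 5xFAD and 393, 335 and 131 in 5xFAD/IRF8KO. The groups with and without Irf8 did not overlap, although libraries without Irf8 differed widely among themselves. Its log2 fold change was 2.81 (SE 0.606, adjusted p = 0.00482) in IRF8KO against WT and 4.77 (SE 0.656, adjusted p = 0.000243) in 5xFAD/IRF8KO against 5xFAD. Both calls held whichever library was left out, with log2 fold changes from 1.76 to 3.09 and from 4.46 to 5.11. With the sex score in the model the first fold change was 2.67 and the adjusted p 0.0598. The interaction of 1.96 did not pass the test (SE 0.816, adjusted p = 0.286).

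The 6 libraries without Irf8 in which App, Aplp2 and Sorl1 were measured carried 64400 to 145000 CPM of neutrophil markers and 493 to 3420 CPM of neuronal markers, and the part of these in the differences was not tested. By replicate, in the order of the App values above, the neuronal sums of the IRF8KO libraries were 708, 1780 and 3420 CPM. Those of the double mutant were 861, 493 and 1730 CPM.

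**Figure D2:**
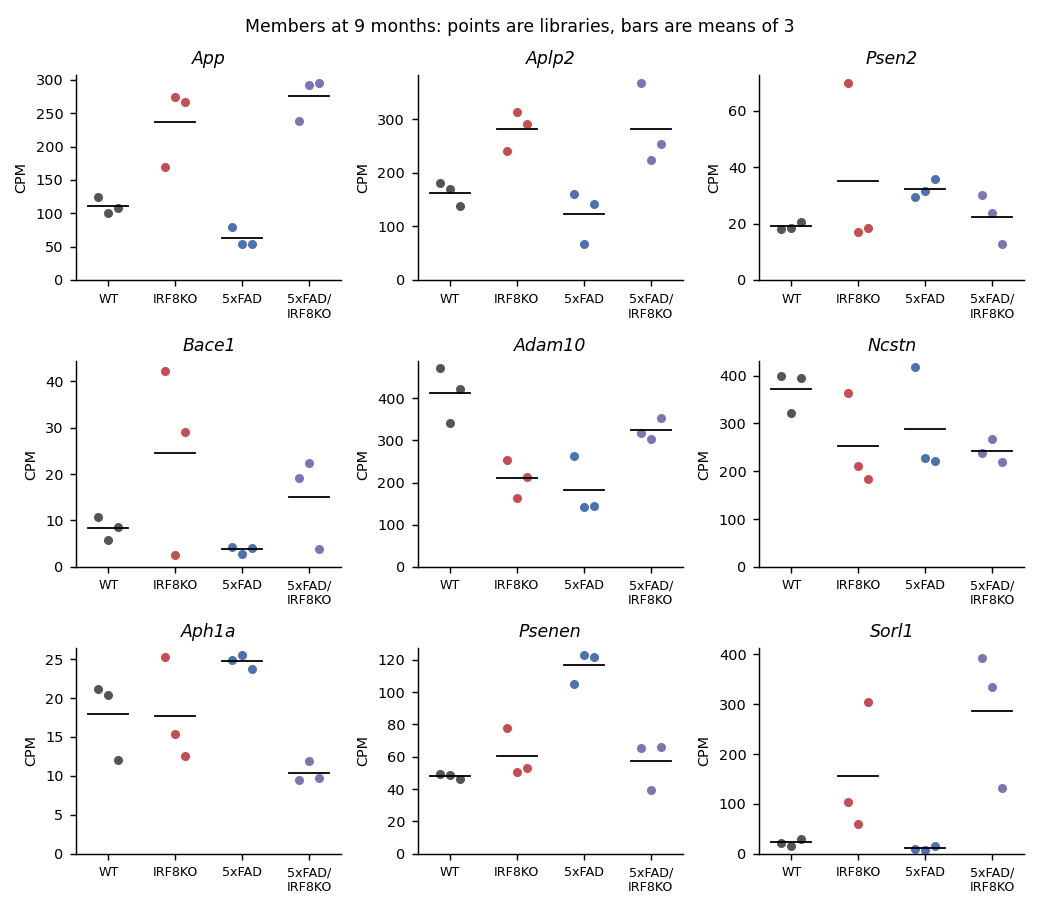
Level of each of the 9 genes (vertical, CPM from 0) in the 12 libraries aged 9 months by group (horizontal); points are libraries and bars are means of 3. App and Sorl1 are higher in every library without Irf8, Adam10 is highest in WT, and Psenen is highest in 5xFAD.

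The alpha-secretase gene Adam10 moved in opposite directions with Irf8 loss in the 2 backgrounds. It was at 471, 341 and 423 CPM in WT and at 253, 164 and 213 in IRF8KO. It was at 264, 142 and 144 CPM in 5xFAD and at 318, 303 and 352 in 5xFAD/IRF8KO. WT was the highest group, all IRF8KO and 5xFAD libraries were below it, and the double-mutant libraries lay between the WT range and the single-mutant ranges, overlapping only WT. The log2 fold change was -0.96 (SE 0.282, adjusted p = 0.0232) in IRF8KO against WT and 0.82 (SE 0.281, adjusted p = 0.0459) in 5xFAD/IRF8KO against 5xFAD. The fall was lost only without WT replicate 1 (adjusted p = 0.0624). The rise remained called in 1 of 6 fits with a library left out, the one without 5xFAD replicate 1, and was lost in the others (largest adjusted p = 0.232), with library sizes as the only scaling (0.0864), without the filter on low counts (0.110) and with only these groups fitted (0.0661). As an interaction the difference between these effects was 1.79 on the log2 scale (SE 0.398), with an adjusted p of 0.0692 in edgeR's test and of 0.000832 in DESeq2.

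Of the gamma-secretase genes, Psenen was called in 1 of these comparisons and the others in none. Psenen was at 49.4, 49.0 and 46.1 CPM in the WT libraries and at 77.6, 50.4 and 52.8 in those of IRF8KO. Its 5xFAD values were 105, 123 and 122 CPM, and the double mutant gave 65.7, 39.7 and 65.8. The 5xFAD libraries were above all others, WT and IRF8KO did not overlap, and 5xFAD/IRF8KO overlapped both. Its log2 fold change in 5xFAD/IRF8KO against 5xFAD was -1.03 (SE 0.303, adjusted p = 0.0242), a call lost in 4 of 6 fits with a library left out, without 5xFAD replicate 1, 2 or 3 or without 5xFAD/IRF8KO replicate 2 (largest adjusted p = 0.0963), and lost without the filter on low counts (0.161) or with the sex score (0.112). Ncstn was at 399, 322 and 394 CPM in the WT libraries and at 363, 211 and 183 in those of IRF8KO. It was at 418, 228 and 221 CPM with the transgenes alone, and the double mutant gave 238, 267 and 220. Replicate 1 of IRF8KO and of 5xFAD was within or above the WT range and the other libraries of these groups were lower, and the log2 fold change of -0.55 in IRF8KO against WT did not pass the test (adjusted p = 0.209). It did without IRF8KO replicate 1 (-1.03, adjusted p = 0.0268) and with library sizes as the only scaling (-0.96, adjusted p = 0.0333). Psen2 was at 17.9, 18.4 and 20.6 CPM in WT and at 70.0, 16.9 and 18.3 in IRF8KO, so its log2 fold change of 0.89 (adjusted p = 0.299) rested on IRF8KO replicate 1 and was -0.22 without it.

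Aph1a and the beta-secretase gene Bace1 had few counts, and both share exon bases with genes on the other strand. Aph1a was at 21.2, 20.4 and 12.1 CPM in the WT libraries and at 25.3, 15.4 and 12.5 in those of IRF8KO. Its 5xFAD values were 24.9, 25.6 and 23.8 CPM, and the double mutant gave 9.47, 11.9 and 9.70. Its 5xFAD/IRF8KO libraries were the lowest, and the log2 fold change of -1.25 against 5xFAD did not pass the test (SE 0.550, adjusted p = 0.111). Of the exon bases of Aph1a, 12.9% are shared with Car14. Over all 33 libraries the strand-ignoring count of Aph1a was 17.8% to 100% of the sum of its strand-specific counts, at 91.8% in 5xFAD and 59.9% in 5xFAD/IRF8KO, so its differences are uncertain. Bace1 was at 10.7, 5.82 and 8.49 CPM in the WT libraries and at 42.3, 2.59 and 29.0 in those of IRF8KO. Its 5xFAD values were 4.36, 2.82 and 4.13 CPM, and the double mutant gave 19.2, 22.3 and 3.88. Both groups without Irf8 overlapped their controls, each with 2 libraries above and 1 within or below the control range, and log2 fold changes of 1.56 (SE 0.961, adjusted p = 0.250) and 2.00 (SE 0.973, adjusted p = 0.148) did not pass the test. For Bace1 the strand-ignoring count was 24.3% to 75.5% of the strand-specific sum, with 15.36% of its exon bases shared with Rnf214.

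The count of genes called in 5xFAD against WT differed between the fits, which also differ in genes tested and scaling, and the cause was not tested. None of the 9 genes was called when all 12 libraries shared an estimate of the spread, against 1.99% of 14604 genes, although 7 of the 9 did not overlap between the groups, against 38.3% of all. In this fit the lowest p-values were those of Psenen (log2 fold change 1.28, SE 0.308, adjusted p = 0.0580), Adam10 (-1.17, SE 0.283, adjusted p = 0.0593) and App (-0.83, SE 0.265, adjusted p = 0.169). These were the 3 of the 9 with an unadjusted p under 0.05. Fitted on the 6 libraries of these groups alone, 6 of the 9 were called, against 43.5% of 10452 genes tested: Psenen and Psen2 higher, and App, Adam10, Bace1 and Sorl1 lower. DESeq2 called Psenen, Adam10 and App, against 8.2% of 9577 genes. The 2 groups had 605376 to 11922037 counts per library and differ in sex-linked transcripts, and with the sex score in the model 2 genes of 14604 were called and none of the 9.

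Mouse App was lower in every 5xFAD library than in any WT library. Thy1, whose promoter drives the transgenes in neurons, had 0 counts among 8036518 in WT, which allows up to 0.373 CPM, and 1 count among 19293018 in 5xFAD. In IRF8KO it was at 15.1, 42.2 and 83.8 CPM and in 5xFAD/IRF8KO at 46.1, 16.6 and 84.3, the groups with neuronal marker RNA. The counts are per mouse gene, and reads of a human transgene that align to the mouse gene would be counted with it. App was at 169 to 274 CPM in IRF8KO, which carries no transgene, and at 238 to 296 in 5xFAD/IRF8KO. The difference between these groups was 0.21 on the log2 scale (SE 0.260, adjusted p = 0.818). None of the 9 genes was called in 5xFAD/IRF8KO against IRF8KO, against 0.164% of 14604 genes, and 2 did not overlap, Adam10 and Aph1a, against 11% of all. Adam10 alone had an unadjusted p under 0.05 (0.0456) there, and DESeq2 called 0. None was called for the interaction, against 0.438% of all, with 4 at an unadjusted p under 0.05 (App, Adam10, Psenen and Sorl1) and 2 called by DESeq2 (Adam10 and Psenen). These comparisons at 9 months share groups, so their values are not independent of each other.

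**Figure D3:**
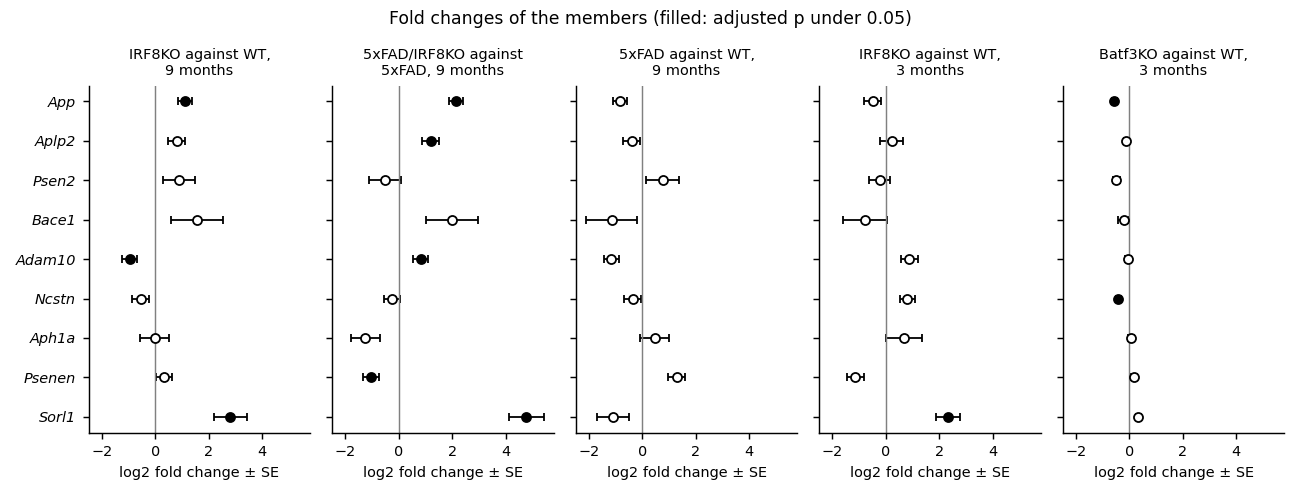
Log2 fold change (horizontal) with its standard error (bars) for each of the 9 genes (vertical) in 5 comparisons; filled points have an adjusted p under 0.05. Sorl1 has the largest fold change in each Irf8 knockout comparison, and Adam10 lies on opposite sides of 0 in the first and second panels.

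At 3 months the germline knockout was called for Sorl1 and for none of the other 8 genes, against 7.39% of 13121 genes tested. Sorl1 was at 18.6, 48.4, 35.8 and 80.4 CPM in WT and at 329, 136, 225 and 245 in IRF8KO. All 4 IRF8KO libraries were above all 4 WT libraries, with a log2 fold change of 2.34 (SE 0.447, adjusted p = 0.0103) that was called whichever library was left out (largest adjusted p = 0.0434). Summed border macrophage markers were at 36.4 to 192 CPM in these WT libraries and at 868 to 1320 in IRF8KO, and monocyte markers at 497 to 2520 and 5650 to 13800. The monocyte sum in IRF8KO was mostly Chil3, which averaged 1100 CPM in WT and 7690 in IRF8KO. Pf4, the most abundant border macrophage marker, averaged 42.4 and 711 CPM. Neutrophil markers were at 8570 to 53900 CPM in WT and 76000 to 164000 in IRF8KO, and microglial markers at 10500 to 18600 and 4530 to 8640. The part of these lists in the Sorl1 difference was not tested.

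The other genes of the list did not pass the test at 3 months. Groups did not overlap for Sorl1, Adam10, Ncstn and Psenen, 4 of the 9, against 19.4% of all genes. App was at 107, 134, 146 and 236 CPM in WT and at 106, 97.3, 106 and 133 in IRF8KO, with overlapping ranges and a log2 fold change of -0.50 (SE 0.315, adjusted p = 0.375). Psenen was at 156, 100, 76.5 and 133 CPM in WT and at 44.3, 70.5, 42.4 and 53.7 in IRF8KO, a log2 fold change of -1.14 (SE 0.329, adjusted p = 0.0537). Adam10 was at 39.2 to 89.3 CPM (median 65.5) in WT and at 102 to 137 in IRF8KO, a log2 fold change of 0.88 (SE 0.319, adjusted p = 0.113). Ncstn was at 67.8 to 124 CPM in WT and at 166 to 176 in IRF8KO, a log2 fold change of 0.81 (SE 0.299, adjusted p = 0.120).

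The knockout effect differed between the ages for 4 of the 9 genes, against 24.0% of 15512 genes tested. On the log2 scale the effect at 9 months minus that at 3 months was 1.67 for App (SE 0.446, adjusted p = 0.0117) and -1.77 for Adam10 (SE 0.438, adjusted p = 0.00752), and both differences were called whichever of the 14 libraries was left out. With library sizes as the only scaling that of App was 1.08 and not called (adjusted p = 0.0985), and the median of all genes moved from 0.40 to -0.17. It was 1.55 for Psenen (SE 0.478, adjusted p = 0.0260) and -1.30 for Ncstn (SE 0.430, adjusted p = 0.0365). The last pair were called in 9 and 3 of the 14 fits with a library left out (largest adjusted p = 0.0693 and 0.130), and both were lost without the filter on low counts (0.114 and 0.106). For Sorl1 the difference was 0.58 (SE 0.765, adjusted p = 0.633), and -0.33 without IRF8KO replicate 3 at 9 months. Age and experiment cannot be told apart here. The WT libraries at 3 months held 8570 to 53900 CPM of neutrophil markers and those at 9 months 3.3 or less. Sex-linked transcripts also differed between these groups, as given above. The part of either in the differences was not tested.

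App and Ncstn were lower in mice without Batf3. In this experiment 2 of the 9 genes were called, both lower, against 3.83% of 13128 genes called and 2.42% called lower, and 5 did not overlap, against 24.0% of all. App was at 153, 126 and 148 CPM in WT and at 95.1, 105 and 90.5 in Batf3KO. Every Batf3KO library was below every WT library, and the log2 fold change of App was -0.56 (SE 0.0991, adjusted p = 0.00674), a call that held whichever library was left out (largest adjusted p = 0.0470). Fitted with all 33 libraries in 1 model, whose shared spread is wider, the log2 fold change was -0.62 with an adjusted p of 1.0, and 10 of 18534 genes were called. Ncstn was at 700, 634 and 627 CPM in WT and at 453, 485 and 535 in Batf3KO, a log2 fold change of -0.41 (SE 0.0806, adjusted p = 0.0126). The Ncstn groups did not overlap, but 4 of 6 fits with a library left out lost the call, those without replicate 1 or 2 of either group (largest adjusted p = 0.0866), and so did the model of all 33 libraries.

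Psen2 and Sorl1 did not overlap between the Batf3 groups and did not pass the test. Psen2 was at 46.9, 41.0 and 35.0 CPM in WT and at 30.6, 28.1 and 29.0 in Batf3KO, a log2 fold change of -0.49 (SE 0.133, adjusted p = 0.0596). Sorl1 was at 52.7, 52.4 and 53.5 CPM in WT and at 64.6, 64.5 and 69.8 in Batf3KO, a log2 fold change of 0.33 (SE 0.0958, adjusted p = 0.0803). Neutrophil markers were at 4.58 CPM or less in WT and 5.16 or less in Batf3KO, and neuronal markers at 14.9 to 20.2 and 7.50 to 9.98. Batf3 itself was at 23.4 to 26.9 CPM in WT and 0.439 to 0.523 in Batf3KO.

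In the conditional line none of the 9 genes was called, against 0.0% of 15512 genes tested; 1407 genes had an unadjusted p under 0.05, and DESeq2 called 162 of 14219. Aplp2 was the 1 gene of the 9 whose groups did not overlap, against 7.28% of all. It was at 128, 120 and 145 CPM in flox and at 113, 64.9, 62.4 and 59.7 in Cre. The library labelled Cre replicate 1, in which Irf8 was at the flox level, was closest to flox, and the other 3 were lower still. The log2 fold change was -0.80 (SE 0.222, adjusted p = 0.247). Without that library it was -1.07 with an adjusted p of 0.000143, and 6.24% of 15264 genes were called, Aplp2 being the 1 of the 9 among them. Border macrophage markers were at 121, 111 and 157 CPM in flox and at 9.73, 6.57 and 11.2 in the Cre libraries other than replicate 1. In Cre replicate 1 they were at 204 CPM, above flox, where Aplp2 was below flox. The part of these markers in the Aplp2 difference was not tested.

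App, called in the germline knockout at 9 months and not at 3, and Sorl1, called at both ages, were not called in the conditional line at 3 months. App was at 103, 77.5 and 112 CPM in flox and at 101, 101, 91.4 and 86.0 in Cre, with overlapping ranges and a log2 fold change of -0.04 (SE 0.171). Sorl1 was at 47.1, 48.9 and 48.8 CPM in flox and at 53.7, 45.7, 52.6 and 37.9 in Cre, a log2 fold change of -0.02 (SE 0.168). Without Cre replicate 1 the log2 fold change of App was -0.07 and that of Sorl1 -0.09. Whether these effects differ from those of the germline knockout was not tested. Irf8 was at the flox level in Cre replicate 1, and reduced but not absent in the other Cre libraries.

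**Figure D4:**
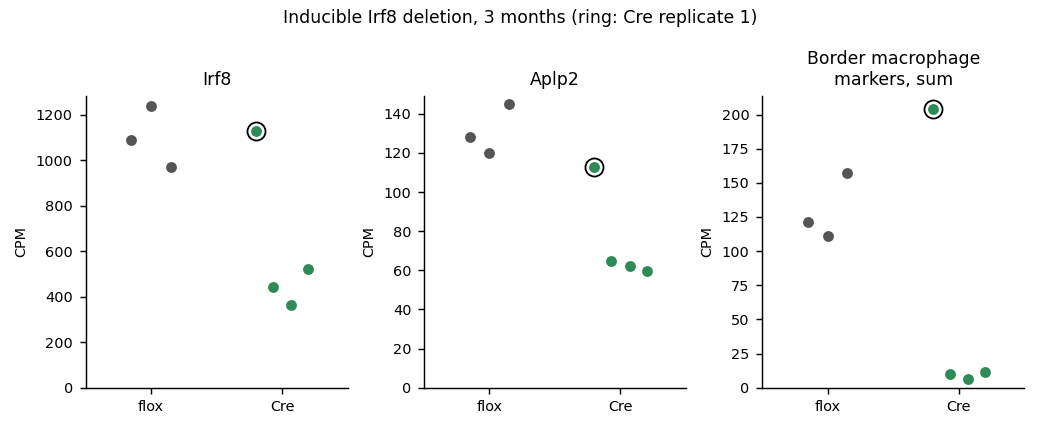
CPM (vertical, from 0) of Irf8, of Aplp2 and of summed border macrophage markers in the 7 libraries of the conditional line (points) by genotype (horizontal). The ringed library, labelled Cre replicate 1, lies near the flox libraries for Irf8 (1130 CPM) and above them for the markers (204 CPM), while the other 3 Cre libraries are lower in all panels.

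Across the 10 groups, levels were compared between genes as CPM per kilobase of the longest principal transcript, scaled over all 33 libraries. In the WT libraries of the Batf3KO experiment, which held 4.58 CPM or less of neutrophil markers, nicastrin was the most abundant of the 9 at 230 ± 20.7 CPM per kb (SD, n = 3). Psenen followed at 98.0 ± 16.2, Adam10 at 66.2 ± 6.40, App at 45.8 ± 4.95 and Aplp2 at 41.5 ± 0.528. Psen2 was at 20.8 ± 3.66, Aph1a at 15.3 ± 2.13, Sorl1 at 5.04 ± 0.120 and Bace1 at 1.53 ± 0.256. Transcripts of the alpha-secretase were thus above those of the beta-secretase in these cells. Group means of Bace1 ran from 0.566 CPM per kb in 5xFAD to 3.96 in IRF8KO at 9 months, from the strand-ignoring counts, which for Bace1 were below the strand-specific sum in every library.

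The order of the groups differed from gene to gene. For App it ran from 5xFAD/IRF8KO (84.7 ± 8.98 CPM per kb) over IRF8KO at 9 months (71.9 ± 16.9), WT at 3 months (55.8 ± 20.5), the Batf3 WT group (45.8 ± 4.95) and IRF8KO at 3 months (41.4 ± 5.91) to WT at 9 months (30.1 ± 3.11), Batf3KO (29.9 ± 1.95), flox (29.7 ± 5.77), Cre (28.4 ± 2.83) and 5xFAD (17.8 ± 3.98). Neighbours in this order overlapped except at 2 steps, from IRF8KO at 3 months to WT at 9 months and from Cre to 5xFAD. Group means spanned 4.76-fold for App, 3.85-fold for Aplp2 and 2.60-fold for Psen2. They spanned 28.8-fold for Sorl1, from 0.913 ± 0.295 CPM per kb in 5xFAD to 26.3 ± 12.9 in 5xFAD/IRF8KO. Only the 3 groups of germline Irf8 knockouts had Sorl1 means above 10 CPM per kb, at 26.3, 26.0 and 14.1, and the highest mean below them was 6.08 in Batf3KO.

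The WT groups of different experiments were not alike. Between the WT libraries that accompany IRF8KO at 3 months and those that accompany Batf3KO, 4 of the 9 genes were called, against 42.8% of 14621 genes tested, and 4 did not overlap, against 53.3% of all. Adam10, Ncstn and Aph1a were lower in the IRF8KO experiment, with log2 fold changes of -1.95, -2.51 and -2.79 (adjusted p = 0.00152, 0.000377 and 0.00122), and Psenen was higher (1.01, adjusted p = 0.0293). The Aph1a call was lost with strand-specific counts (-0.99, adjusted p = 0.119), and that of Psenen when any 1 of the Batf3 WT libraries was left out (largest adjusted p = 0.243), with library sizes only (0.0804) and without the filter on low counts (0.0963). The experiments differ in other-cell RNA and in sex-linked transcripts as given above, and the part of these was not tested. For Ncstn the difference between WT groups was larger in size than its log2 fold change in every genotype comparison.

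**Figure D5:**
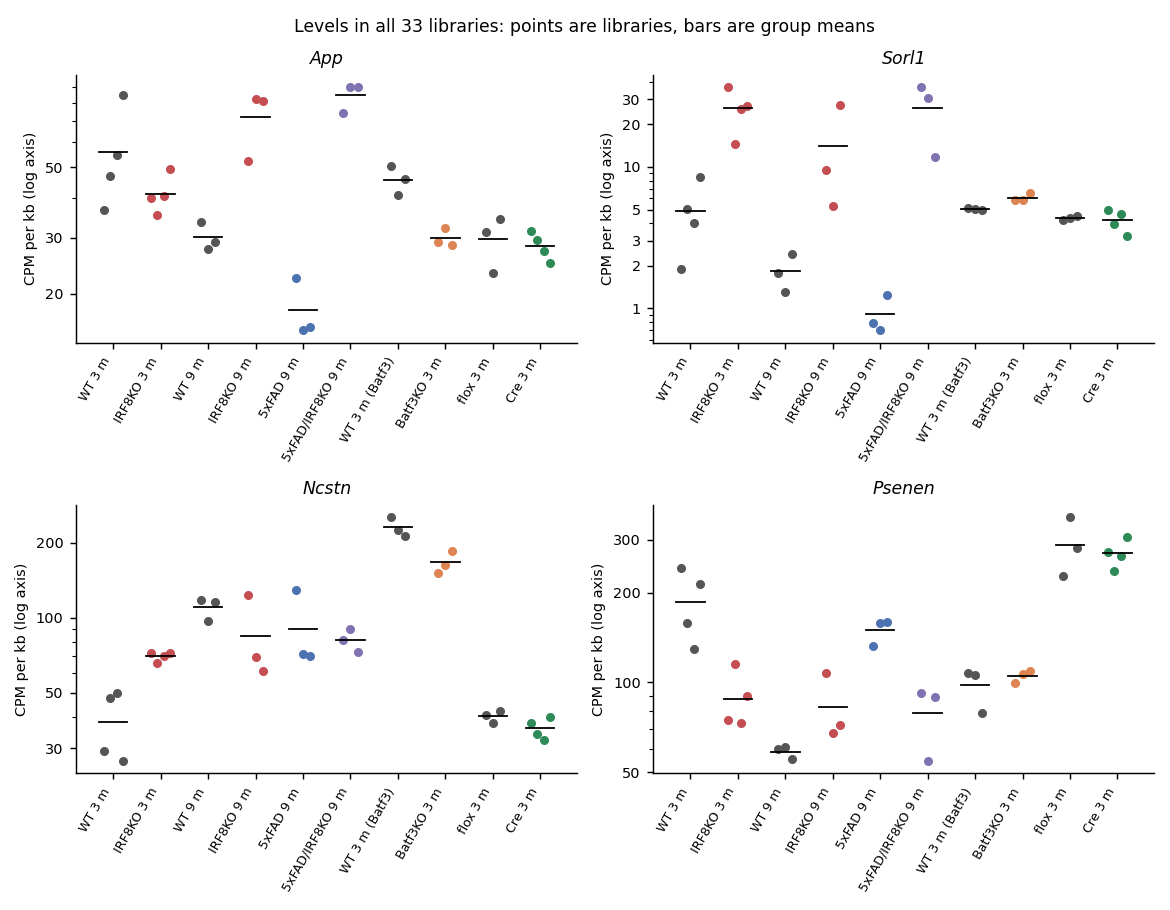
CPM per kb (vertical, log axis) of App, Sorl1, Ncstn and Psenen in all 33 libraries (points) by group (horizontal), with group means as bars. Sorl1 is above 10 CPM per kb on average in the 3 germline Irf8 knockout groups, and Ncstn differs more between the WT groups of the experiments than within them.

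Other genes of the pathway were taken from a list of 63 genes. Apbb3 was not analysed here, and of the other 62 genes 57 passed the filter at 9 months. In IRF8KO against WT, 13 were called higher and 8 lower, against 19.6% and 8.68% of all genes tested, with a median log2 fold change of -0.05 against 0.25 over all. In 5xFAD/IRF8KO against 5xFAD, 15 were higher and 7 lower, against 18.0% and 9.72% of all, with a median of 0.52 against 0.24. In 5xFAD against WT 1 of 57 was called, against 1.99% of all, which was Ifitm3, which encodes an interferon-induced membrane protein that binds gamma-secretase, at 56.1 ± 6.01 CPM against 15.7 ± 8.07 (SD, n = 3 each, log2 fold change 1.90, adjusted p = 0.0251).

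Aplp1 was called higher in both germline knockout comparisons at 9 months. Of 9 adaptor genes 5 were called higher in each, not necessarily the same 5, against 19.6% and 18.0% of all genes tested. Aplp1, the neuronal member of the precursor family, was at 236 ± 105 CPM in IRF8KO against 0.877 ± 1.13 in WT (adjusted p = 7.08e-06) and at 148 ± 12.6 in 5xFAD/IRF8KO against 2.84 ± 0.322 in 5xFAD (adjusted p = 1.79e-05). The adaptors bind the tail of App or of its relatives, and 1 of the 9 fell in each comparison. Dab1, one of those called higher, was at 17.9 ± 4.91 against 0.366 ± 0.323 CPM in IRF8KO and WT (adjusted p = 0.00351). Aph1b, an alternative to Aph1a in gamma-secretase, was at 48.1 ± 39.6 CPM in IRF8KO against 1.22 ± 1.23 in WT (adjusted p = 0.00576). Aplp1 and Dab1 are known from neurons, whose markers were higher in the same libraries (708 to 3420 CPM against 8.96 or less), and the part of that RNA was not tested. Dab2, another of the adaptors, was at 222 to 376 CPM in 5xFAD/IRF8KO against 8.79 to 16.8 in 5xFAD (adjusted p = 9.99e-06). At 3 months it was at 211 to 303 CPM in IRF8KO against 3.02 to 42.9 in WT (adjusted p = 0.008). In these IRF8KO and WT libraries the neuronal sum was 71.5 to 525 and 425 to 865 CPM. The border macrophage sum was 868 to 1320 and 36.4 to 192 CPM. The part of either in the Dab2 difference was not tested.

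Of 3 inhibitors of App processing 2 fell in each comparison and none rose, Itm2b and Itm2c, which encode BRI proteins that bind App and shield it from cleavage. Over all genes tested 8.68% and 9.72% were called lower in these comparisons, and counts from sets this small are not read as results about a role. Itm2c was at 289 ± 41.1 CPM in IRF8KO against 719 ± 76.3 in WT (adjusted p = 0.000851) and at 255 ± 53.4 in 5xFAD/IRF8KO against 1030 ± 37.2 in 5xFAD (adjusted p = 4.39e-05). Of 5 endocytosis genes 2 fell in each comparison, including Bin1, an Alzheimer's disease risk gene, at 83.7 ± 62.3 against 483 ± 46.0 CPM in IRF8KO and WT (adjusted p = 0.00180). Lrp1, a scavenger receptor that takes up App and amyloid-beta, was at 21 ± 11.2 CPM in IRF8KO against 331 ± 43.3 in WT (adjusted p = 0.000443). The second alpha-secretase gene Adam17 was at 64.5 ± 20.2 CPM against 288 ± 46.5 (adjusted p = 0.00104). In 5xFAD/IRF8KO against 5xFAD neither Lrp1 (log2 fold change -1.53, adjusted p = 0.0528) nor Adam17 (-0.17, adjusted p = 0.759) passed the test. All of these are expressed by microglia, whose marker sum was 2610 to 7220 CPM in IRF8KO against 58400 or more in WT, and the part of this in the falls was not tested.

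Tetraspanins that guide Adam10 were called in both directions, and so were amyloid-degrading enzymes in IRF8KO against WT, where 1 of 6 rose and 1 fell. Of 5 tetraspanins tested, 3 rose and 1 fell in IRF8KO, and 2 rose and 1 fell in 5xFAD/IRF8KO. Over all genes tested 19.6% rose and 8.68% fell in the former, and 18.0% and 9.72% in the latter. Tspan5 was at 84.5 ± 31.4 CPM in IRF8KO against 8.23 ± 2.51 in WT (adjusted p = 0.00156), and Tspan14 at 346 ± 69.5 in 5xFAD/IRF8KO against 688 ± 178 in 5xFAD (adjusted p = 0.0170). Mmp9, a metalloprotease of neutrophil granules that can degrade amyloid-beta, was at 805 ± 269 CPM in IRF8KO against 0.404 ± 0.700 in WT (adjusted p = 1.08e-05). Mmp2, a gelatinase that can degrade amyloid-beta, had 0 counts among 23542205 in IRF8KO, which allows up to 0.127 CPM, against 51.0 to 103 CPM in WT (adjusted p = 0.0119). In 5xFAD/IRF8KO against 5xFAD 1 of the 6 enzymes, Mmp9, rose and none fell. At 3 months 3 of 55 listed genes rose and 2 fell, against 7.39% of all genes called. Mmp9 was then at 1560 ± 336 CPM in IRF8KO against 199 ± 179 in WT (SD, n = 4 each, adjusted p = 0.0143), and Bin1 at 83.3 ± 12.8 against 322 ± 106 (adjusted p = 0.00543). With loss of Batf3, 3 of 47 rose and 2 fell, against 3.83% of all called. Those that fell were Mmp2, at 28.6 ± 2.83 CPM in Batf3KO against 82.0 ± 2.80 in WT (adjusted p = 3.05e-06), and Lrp1, at 714 ± 37.4 against 957 ± 107 (adjusted p = 0.0137). In the conditional line none of 57 was called.

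Patterns most like those of the 9 genes were sought over the 12 libraries aged 9 months among 10603 protein-coding genes, as Pearson correlations of log2 CPM. These are descriptions over libraries that share genotype and other-cell RNA. The genes closest to App were Baz1a, a chromatin remodelling subunit (r = 0.976), Ggnbp2 (0.974) and Kif5b, a kinesin motor (0.974). The closest gene was Nhsl2 for Sorl1 (r = 0.965), Daam1 for Aplp2 (0.951), Cops7a for Aph1a (0.949), Ppp1r14b for Psenen (0.943) and Iars for Ncstn (0.937). It was Sf3b2 for Bace1 (0.917), Abhd11 for Psen2 (0.893) and Ssh2 for Adam10 (0.887). Kif5b averaged 71.0 CPM in the WT libraries, 245 in those of IRF8KO, 31.9 with the transgenes alone and 220 in the double mutant, and Ssh2 averaged 522, 237, 191 and 438 in the same order. Among the 9, App ran with Sorl1 (r = 0.89) and Aplp2 (0.86) and against Aph1a (-0.76) and Psenen (-0.67), while Adam10 ran with Ncstn (0.60) and against Psenen (-0.63).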

How the data were processed

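RNA from sorted microglia was sequenced in 33 libraries made with SMART-Seq v4 and Nextera XT, without molecular identifiers, per the labels' protocols. The authors deposited raw read counts per gene, in 3 columns per library: ignoring strand, and for each strand. The submitters' processing notes name mm10, bcl2fastq, STAR 2.5.2b, Picard 2.17.11, Subread and featureCounts, without giving their roles. The strand-ignoring counts were used, since reads fell on both strands alike, and compared with the sum of the strand columns. The files hold 54146 gene IDs, of which 54079 are in GENCODE M21, whose names and positions were used.

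Genes were tested with edgeR 4.0.16 in R 4.3.3 (TMM scaling, quasi-likelihood test, Benjamini-Hochberg adjustment over all genes tested), after edgeR's filter on low counts. The 4 groups at 9 months shared a fit with 4 group means, the age difference used the 14 IRF8KO and WT libraries, and each other comparison used its own groups. The same edgeR steps were tried on counts simulated for 2 groups with a fixed spread, so the fits of more groups were not tested in that way. CPM are scaled within these fits, and CPM per kb over all 33 libraries by the length of the longest principal transcript. Cell markers, sex-linked transcripts and limits from counts are exceptions, given as CPM scaled to the library total alone. Alternatives were other scalings, no filter, strand columns, a replicate block, a model of all 33 libraries, DESeq2 1.42.0, a sex score, only the 2 groups, and leaving out each library. The replicate numbers do not pair samples by the labels. Genes described in the text are the 9 members, genes of the pathway list that were called and averaged 5 CPM or more in whichever group was higher (at most 3 per role, by size of change), and the gene most like each member (the 3 most like for App). The members and lists were chosen with earlier results of these data known. Depth limits the precision most in WT at 9 months (605376 to 5757466 counts per library), and limits from counts cover counting error only. A further gene of the pathway list is in its counts and is not reported here by name.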

Additional observations from a re-analysis of the deposited data

Results flagged for a closer look

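The effect of the germline Irf8 knockout differed between the ages, by a test of the difference in edgeR, for App (1.67 on the log2 scale, adjusted p = 0.0117), Adam10 (-1.77, adjusted p = 0.00752), Ncstn (-1.30, adjusted p = 0.0365) and Psenen (1.55, adjusted p = 0.0260). Age and experiment cannot be told apart in this test. The calls of Ncstn and Psenen were lost in several fits with a library left out. Those of App and Psenen were lost with library sizes as the only scaling (adjusted p = 0.0985 and 0.132).

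A library stood apart from the rest of its group in 2 of the 27 groups of values that were large enough to be examined. Aplp2 in IRF8KO at 3 months was at 132 CPM in the lowest library, against 186 to 193 in the others. Aplp2 in Cre was at 113 CPM in the highest library, the one labelled Cre replicate 1, against 59.7 to 64.9 in the others. Chance alone flags about 1 in 20 such groups.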

How the results depend on the processing

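Counts of the 9 genes called moved by over 1.5 times as follows. In IRF8KO against WT at 9 months the count was 3, and 1 with the sex score. In 5xFAD against WT it was 0, and 1 with RLE scaling or strand columns, 2 in the model of all 33 libraries, 3 with DESeq2 and 6 with only the 2 groups. In 5xFAD/IRF8KO against 5xFAD it was 5, and 3 without the filter, with the sex score or with only the 2 groups. For the interaction it was 0, and 1 without the filter and 2 in the model of all 33 or with DESeq2. In IRF8KO against WT at 3 months it was 1, and 4 in the model of all 33 and 2 with DESeq2. In Batf3KO it was 2, and 0 in the model of all 33 and 4 with DESeq2. In the conditional line it was 0, and 1 without the filter or with DESeq2. For the age difference it was 4, and 2 with library sizes only or without the filter. The cause was not tested. With 1 library left out the counts ran in the same order from 2 to 4, 0 to 1, 2 to 4, 0 to 0, 1 to 2, 1 to 3, 0 to 1 and 2 to 4. They ran from 0 to 0 in 5xFAD/IRF8KO against IRF8KO and from 3 to 4 between the WT groups. With library sizes only, higher and lower calls over all genes went from 2868 and 1268 to 2365 and 1796 (IRF8KO at 9 months), from 264 and 26 to 10 and 15 (5xFAD) and from 2799 and 918 to 2234 and 1562 (age difference).

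Samples share replicate numbers by name only. In no comparison did every same-numbered pair correlate above 0.1, with correlations from -0.28 to 0.25. With the replicate number as a block the counts of called genes were 3, 0, 5, 0, 0, 1, 0, 4 and 4, as without it, and in Batf3KO 1 (Ncstn had an adjusted p of 0.0731). The block turned the sign of uncalled log2 fold changes to 0.02 for App and 0.07 for Sorl1 in the conditional line, to -0.22 for Aplp2, 0.05 for Psen2, -0.85 for Bace1 and -0.47 for Sorl1 between the WT groups, and to 0.0 for Ncstn in 5xFAD/IRF8KO against IRF8KO.

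All 61 turns of sign were in genes not called in either setting. Aph1a turned with strand columns to 0.57 (IRF8KO at 9 months), -0.44 (3 months), -0.04 (conditional line) and 1.06 (age difference), and at 9 months to 0.14 in the model of all 33 and 0.08 with only the 2 groups. Psenen in IRF8KO at 9 months turned to -0.06 with library sizes only. Ncstn turned with the sex score to 0.09 (against 5xFAD) and 0.14 (against IRF8KO) in 5xFAD/IRF8KO. Aplp2 in 5xFAD/IRF8KO against IRF8KO turned to 0.04 without the filter and 0.02 in the model of all 33. Bace1 in the interaction turned to -0.14 with strand columns. Adam10 in the conditional line turned to -0.02 with library sizes only and -0.01 in the model of all 33. Sorl1 between the WT groups turned to -0.25 with library sizes only, -0.08 without the filter and -0.03 with strand columns or in the model of all 33.

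With 1 library left out, log2 fold changes that turned sign ranged as follows. In IRF8KO at 9 months they ran from -0.22 to 1.10 for Psen2, -0.48 to 0.07 for Aph1a and -0.01 to 0.33 for Psenen. In 5xFAD/IRF8KO they ran from -0.50 to 0.11 for Ncstn against 5xFAD, and against IRF8KO from -0.24 to 0.14 for Aplp2, -1.0 to 0.32 for Psen2, -0.25 to 0.28 for Ncstn and -0.20 to 0.13 for Psenen. Bace1 ran from -0.05 to 1.11 in the interaction and from -1.14 to 0.39 in IRF8KO at 3 months, where Aplp2 ran from -0.03 to 0.50. In Batf3KO Adam10 ran from -0.15 to 0.04 and Aph1a from -0.02 to 0.12. In the conditional line App ran from -0.18 to 0.07, Bace1 from -0.24 to 0.04, Adam10 from -0.08 to 0.10, Psenen from -0.22 to 0.13 and Sorl1 from -0.09 to 0.07. Sorl1 ran from -0.33 to 0.97 in the age difference. Between the WT groups Aplp2 ran from -0.12 to 0.60, Psen2 from -0.46 to 0.09, Bace1 from -0.59 to 0.99 and Sorl1 from -0.33 to 0.33.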
